A study of Mus musculus with 6 samples.

Results

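The genes described here were the 34 mouse genes that code for Wnt ligands and their receptors, out of 21755 protein-coding genes of the autosomes and chromosome X in the GENCODE vM21 annotation of GRCm38 (mm10). They were taken by name, with no measured value used in the rule, though earlier results of these data were known. They comprised 19 ligand genes, 10 Frizzled receptor genes and the 5 co-receptor genes Lrp5, Lrp6, Ror1, Ror2 and Ryk. The series holds 6 samples from wild-type whisker pads of the mouse strain labelled B6/J2 at embryonic day 12, dissected and dissociated to single cells, namely 3 libraries raised against H3K4me1 and 3 with control IgG. CUT&Tag was the assay, where a bound antibody tethers a transposase that cuts and tags the DNA around the marked nucleosome. The peak lists of the 3 H3K4me1 libraries were analysed and are numbered by the pad in their titles. IgG libraries were not analysed here, and the values below therefore have no measured background beside them. The labels do not say whether the 3 pads came from separate embryos, so the spread between replicates may be partly technical.

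H3K4me1 is histone H3 carrying a single methyl group on lysine 4, and it marks enhancers that are in use as well as enhancers that are only primed. Wnt ligands are secreted, lipid-modified proteins that bind Frizzled receptors on the receiving cell. With the co-receptors Lrp5 or Lrp6 this stabilises β-catenin, which then acts with Tcf and Lef factors in the nucleus, whereas Ror1, Ror2 and Ryk pass on signals that do not need β-catenin and that direct cell polarity and movement. In embryonic skin, Wnt signalling between ectoderm and mesenchyme is needed to start hair and whisker follicles, and ligands made by the ectoderm act on both layers.

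Peaks are unbroken runs of bases under sequenced fragments, and the authors kept the top 1% of such runs in each replicate by total signal, which is the fragment pileup summed over the bases of the peak. The lists held 16788, 12969 and 13998 peaks with a median length of 2981, 3682 and 3352 bp in replicates 1, 2 and 3. Read numbers are not in the lists, and the sequencing depth that the paper reports was not used here. The absence of a peak does not show that a gene lacked the mark. The total signal summed over the peaks was 822360552, 985881531 and 744342185. Signals were not scaled to depth, so a peak is described by its percentile, the share of peaks in its own list with the same or a lower total signal.

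The source name of 4 samples, H3K4me1 replicates 2 and 3 among them, is adult kidney, while every title names the whisker pad. Of 12 facial mesenchyme markers, 12, 11 and 12 carried a peak in replicates 1, 2 and 3, against 3, 3 and 1 of 12 adult kidney markers, of which Slc12a1 carried one in every replicate and Umod and Nphs1 in none. Of 10 surface ectoderm markers, 7, 7 and 3 carried a peak, with Krt14, Krt15 and Epcam in none. Of the other cells that a pad could hold, endothelium had 3, 2 and 2 of 8 markers with a peak, skeletal muscle 3, 3 and 3 of 6, and nerve cells with their glia 1, 2 and 0 of 6. Over all protein-coding genes the share with a peak was 24.9%, 22.6% and 19.6% in replicates 1, 2 and 3.

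At some ligand and receptor genes the highest pileup of all 3 replicates fell within the same 300 bases, and 6 such sites are shown. At others it did not, and at Ror2, where the signal was broad, the places of highest pileup spanned 7352 bp. They are the 2 such sites of highest mean percentile in each class, a choice narrowed to sites with agreeing maxima and outside untranslated regions after their positions were seen. Sequences are from the plus strand of the RefSeq GRCm38 genome, and capitals mark the bases under the highest pileup of each replicate.
Wnt9a, intron, chr11:59308962-59309261: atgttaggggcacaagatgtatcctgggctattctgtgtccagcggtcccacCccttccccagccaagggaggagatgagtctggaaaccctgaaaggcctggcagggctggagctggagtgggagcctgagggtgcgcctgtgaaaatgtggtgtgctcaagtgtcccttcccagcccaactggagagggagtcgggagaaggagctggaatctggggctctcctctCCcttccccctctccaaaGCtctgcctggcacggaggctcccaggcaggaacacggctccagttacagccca
Wnt11, intron, chr7:98843752-98844051: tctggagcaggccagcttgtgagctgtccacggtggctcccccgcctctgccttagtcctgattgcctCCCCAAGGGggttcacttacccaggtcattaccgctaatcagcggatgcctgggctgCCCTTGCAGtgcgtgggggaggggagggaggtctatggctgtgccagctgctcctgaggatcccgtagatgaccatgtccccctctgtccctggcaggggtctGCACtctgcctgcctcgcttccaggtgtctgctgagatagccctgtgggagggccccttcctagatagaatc
Fzd7, beyond the 3′ end of the gene, chr1:59487777-59488076: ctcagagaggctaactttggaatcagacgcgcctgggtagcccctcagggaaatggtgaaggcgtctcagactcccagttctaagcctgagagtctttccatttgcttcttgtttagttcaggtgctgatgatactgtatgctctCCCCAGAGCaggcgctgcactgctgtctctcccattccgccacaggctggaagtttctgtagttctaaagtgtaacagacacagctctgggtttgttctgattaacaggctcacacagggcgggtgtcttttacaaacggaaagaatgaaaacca
Fzd2, beyond the 3′ end of the gene, chr11:102609963-102610262: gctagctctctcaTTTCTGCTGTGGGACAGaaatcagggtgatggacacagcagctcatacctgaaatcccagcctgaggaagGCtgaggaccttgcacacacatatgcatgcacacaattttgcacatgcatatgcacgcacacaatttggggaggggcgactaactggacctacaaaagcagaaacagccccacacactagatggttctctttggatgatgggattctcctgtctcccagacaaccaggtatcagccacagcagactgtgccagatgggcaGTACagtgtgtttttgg
Ryk, intron, chr9:102840891-102841190: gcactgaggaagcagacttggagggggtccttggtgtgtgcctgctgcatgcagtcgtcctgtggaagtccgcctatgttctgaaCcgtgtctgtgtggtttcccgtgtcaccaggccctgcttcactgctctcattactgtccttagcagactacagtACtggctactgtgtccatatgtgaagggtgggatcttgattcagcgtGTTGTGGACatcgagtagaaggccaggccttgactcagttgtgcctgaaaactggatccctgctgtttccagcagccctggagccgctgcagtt
Ror1, intron, chr4:100203700-100203999: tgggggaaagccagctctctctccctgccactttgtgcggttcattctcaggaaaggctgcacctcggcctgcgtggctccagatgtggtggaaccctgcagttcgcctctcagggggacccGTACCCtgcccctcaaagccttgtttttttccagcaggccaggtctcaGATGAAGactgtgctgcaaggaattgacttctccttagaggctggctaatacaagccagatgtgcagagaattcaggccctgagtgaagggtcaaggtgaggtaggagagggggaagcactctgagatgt
None of the 6 windows was centred on a start site. The centres lay 2.18 kb from the nearest annotated protein-coding start at Wnt9a, 5.06 kb at Wnt11, 5.50 kb at Fzd7, 5.72 kb at Fzd2, 6.07 kb at Ryk and 108 kb at Ror1. The bases of highest pileup in the 3 replicates spanned 9 bp at Fzd7 and 274 bp at Fzd2, the closest and the widest of the 6. At Fzd7 the highest pileup was 90, 120 and 96 fragments in replicates 1, 2 and 3, and at Fzd2 it was 56, 72 and 48.

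Most Wnt ligand and receptor genes carried H3K4me1 in the E12 whisker pad. A peak was assigned to a gene if it reached into the gene body or its flanks of 5 kb by at least 1 bp. By this rule 24, 23 and 19 of the 34 genes carried a peak in replicates 1, 2 and 3, on average 64.7% ± 7.78 (SD, n = 3), while the share was 24.9%, 22.6% and 19.6% over all protein-coding genes. In every replicate the Wnt share was above the share over all genes, by more than the replicates differed from each other. Long genes carry peaks more often, so each member was also set beside the 500 protein-coding genes nearest to it in length, of which 23.1% carried a peak. The difference was 44.9, 44.2 and 35.7 percentage points in the 3 replicates and averaged 41.6 ± 5.11 (SD, n = 3).

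The 34 genes fell into 18 with a peak in all 3 replicates, 7 with a peak in some and 9 with none. The 18 genes made up 52.9% of the members, beside 15.5% of all protein-coding genes and 16.1% of genes of like length. Among the short genes the contrast with other genes of the same size was plain. Of the 6 members under 5 kb, 4 carried a peak in all replicates, beside 6.82% of protein-coding genes of that size. Of the 9 members of 5 to 20 kb, 5 did so, beside 9.17%. Members of 20 to 50 kb, most of them ligands, were nearer to their background, with 3 of 12 beside 13.3%. Of the 2 members of 50 to 100 kb, 1 carried a peak in all replicates, beside 23%, and all 5 members of 100 kb and longer did, beside 46%.

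**Figure D1:**
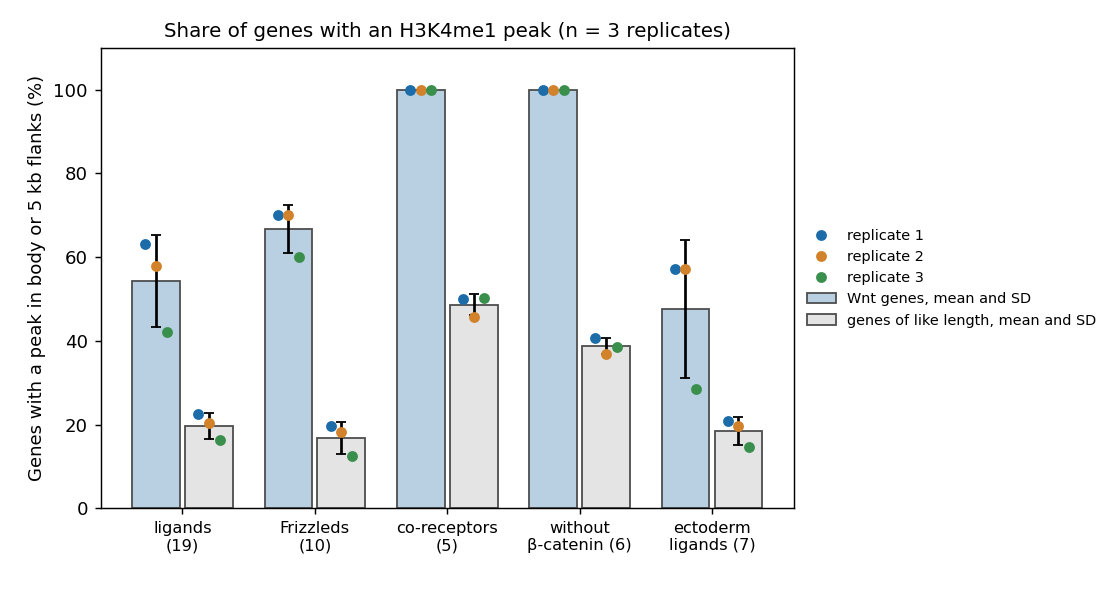
Share of genes with an H3K4me1 peak in the gene body or 5 kb flanks (y axis, percent) for ligands, Frizzleds, co-receptors, the genes of signalling without β-catenin and the ectoderm ligands (number of genes in brackets). Bars are means of 3 replicates with SD, points are replicates, and grey bars are the protein-coding genes nearest in length. The Wnt bars run from 47.6% to 100% and the grey bars from 16.7% to 48.7%.

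Receptor genes carried peaks more often than ligand genes in each replicate. Of the 15 Frizzled and co-receptor genes, 12, 12 and 11 carried a peak, and of the 19 ligands 12, 11 and 8 did. The receptor share exceeded the ligand share by 16.8, 22.1 and 31.2 percentage points in the 3 replicates, averaging 23.4 ± 7.28 (SD, n = 3). The direction was the same in 3 of 3 replicates, and a two-sided exact permutation test that flips the sign of each replicate's difference gave p = 0.25, which is the smallest p that 3 replicates allow. Genes of like length to the receptors also carried peaks more often than those of like length to the ligands, 27.4% against 19.7%. With 20 kb in place of 5 kb on either side, the difference between receptors and ligands was 12.9 percentage points, and in replicate 1 alone, whose source name is not kidney, it was 16.8.

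By class, the 5 co-receptor genes all carried peaks in every replicate, a share 45.6 ± 10.96 percentage points above that of the ligands (SD, n = 3, 3 of 3 replicates in this direction). They are long genes, and 48.7% of genes of like length carried a peak, beside 16.7% for the Frizzleds. Set against genes of like length, the excess was 51.3 points at co-receptors, 49.9 at Frizzleds and 34.7 at ligands. With a co-receptor share of 100%, no larger excess was possible in that class. For the 10 Frizzled genes, with 7, 7 and 6 carrying a peak, the share was 12.3 ± 5.53 points above that of the ligands. This gap depended on the settings. It was 4.04 points with the gene body alone, 1.75 with 20 kb on either side and -2.46, with Frizzleds below ligands, in the stronger 50% of each list. Replicate 3 had the fewest marked ligands, at 42.1%, against 63.2% in replicate 1 and 57.9% in replicate 2.

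**Figure D2:**
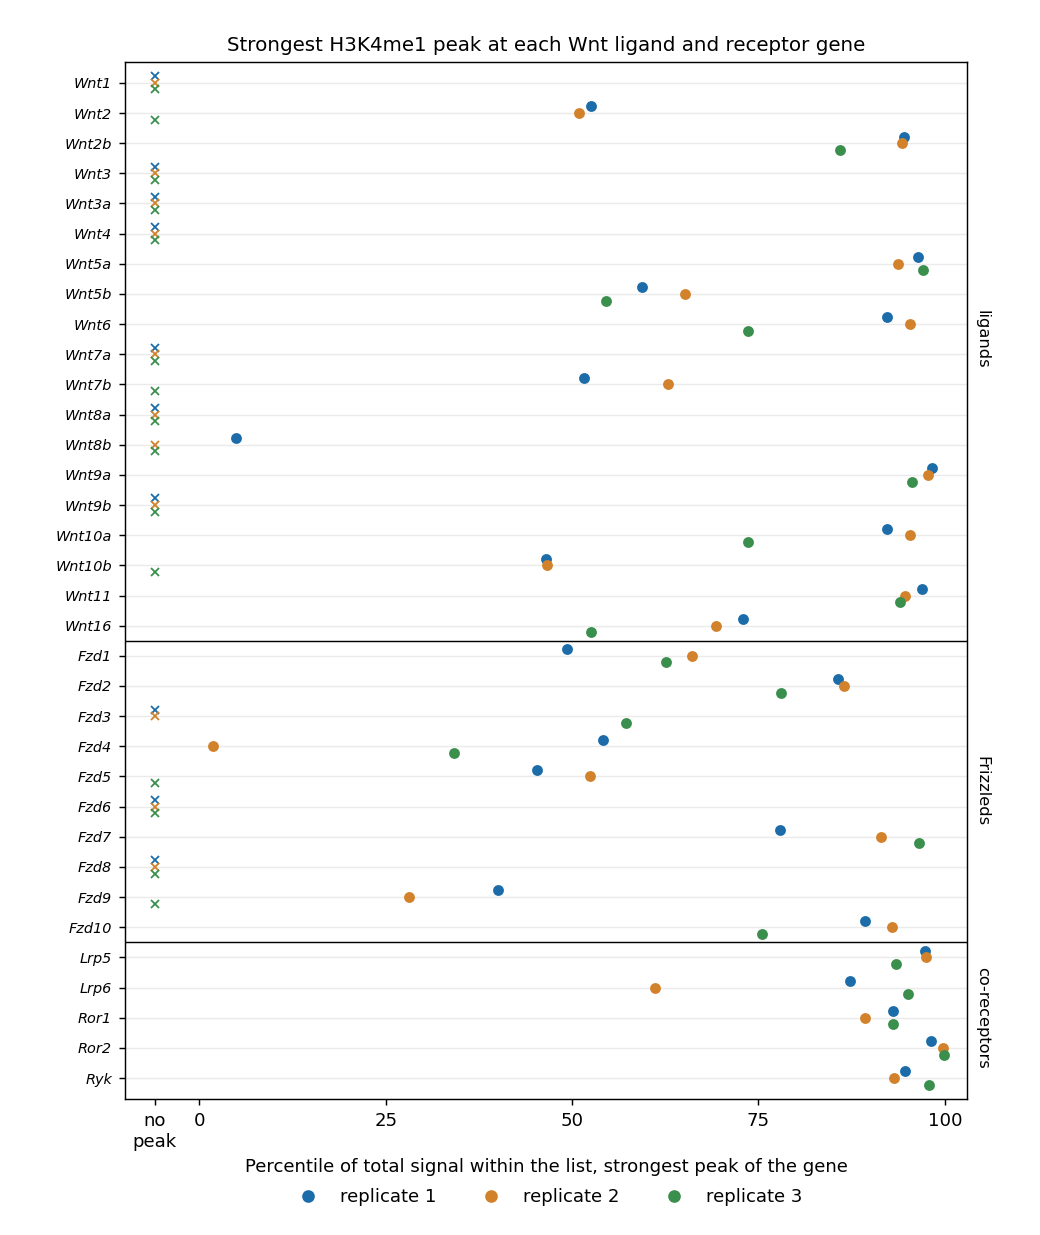
Percentile of total signal of the strongest H3K4me1 peak at each of the 34 genes (x axis) in replicates 1 to 3, with crosses at the left for replicates in which the gene carried no peak. Co-receptors sit at the right, with 14 of 15 values above 87, whereas ligands and Frizzleds run from no peak to above 95. The co-receptor genes are long, and each value is the highest of all peaks at a gene.

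The ligands ranged from genes with some of the strongest peaks of the lists to genes with none. Wnt2b, Wnt5a, Wnt5b, Wnt6, Wnt9a, Wnt10a, Wnt11 and Wnt16 carried a peak in all 3 replicates, 8 of 19 ligands. Among those with a peak, the strongest peak had a median percentile of 82.6, 93.7 and 79.8 by replicate and 85.4 ± 7.37 on average (SD, n = 3), while over all protein-coding genes with a peak it was 61.7 ± 1.03. Wnt6 and Wnt10a entered the ligand median with the same peak in each replicate, which was therefore counted for both. The value over all genes was not matched for length.

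Wnt9a (chr11:59306928-59333552), a ligand known from joint and skeletal development, had the highest mean percentile of the ligands, with 98.3, 97.7 and 95.5 in replicates 1, 2 and 3, above Wnt5a in replicates 1 and 2 and below it in replicate 3. Its main peak lay mostly in the first part of the gene and was 10580, 12921 and 9962 bp long, with total signals of 258302, 339060 and 152604. The highest pileup fell in the intron printed above in every replicate. A second region towards the 3′ end of the gene, chr11:59328242-59331266, was also present in all 3 replicates, at percentiles of 73.1, 67.5 and 31.8. The neighbouring ligand gene Wnt3a, which drives somite and tail formation, lies 16.2 kb away and carried no peak in any replicate.

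Wnt5a (chr14:28504750-28527448) codes for the ligand that acts through Ror2 and drives outgrowth of the face and limbs. Its strongest peak reached percentiles of 96.4, 93.7 and 97.1, so the 3 replicates lay within 4 points of each other. Peaks covered 50.4%, 38.4% and 46.8% of its window, meaning the gene with its flanks, and this mean coverage was above that of 98.4% of genes of like length. Unlike at Wnt9a, the place of highest pileup differed between replicates by 5449 bp.

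Wnt11 (chr7:98835112-98855195), a ligand of cell movement in the embryo and of branching in the kidney, had percentiles of 96.9, 94.7 and 94.0. A peak of 12425, 10730 and 11083 bp ran from upstream of the gene across its 5′ part in the 3 replicates. Together with Ror2 it was 1 of only 2 members with a peak of 10 kb or longer in every replicate.

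Wnt5b (chr6:119432531-119544347), the close relative of Wnt5a that is known from cartilage, carried more but weaker peaks. It had 6, 4 and 3 of them in replicates 1, 2 and 3, and the strongest was at a percentile of 59.3, 65.1 and 54.6. These values lay near the median for all genes with a peak. The strongest of its regions in all 3 replicates also overlaps Fbxl14, another protein-coding gene, but Wnt5b carried a peak in each replicate without it.

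Wnt6 and Wnt10a stand next to each other on chromosome 1, at chr1:74771892-74785322 and chr1:74791516-74804179, separated by 6.19 kb. Both are expressed in embryonic surface ectoderm, and Wnt10a is needed for normal teeth and hair. A region of 13509 bp, chr1:74787804-74801312, began between them and ran into Wnt10a without reaching the body of Wnt6. It lay within 5 kb of Wnt6 and so gave both genes their strongest peak, at percentiles of 92.2, 95.4 and 73.6. The region was the weakest in replicate 3, where no peak reached the body of Wnt6 and the nearest lay 0.161 kb away. Besides it, 1 region at the 5′ side of Wnt6 and 1 at the 3′ side of Wnt10a were present in all replicates, and 1 inside Wnt6 in replicates 1 and 2. Peaks covered 79.6%, 85.1% and 42.3% of the Wnt10a window, a mean coverage above that of every gene of like length.

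Wnt2b (chr3:104945272-104961921), a ligand of eye and lung development, had 2 peaks in each replicate, with the strongest at percentiles of 94.5, 94.2 and 85.9. The region over its 5′ end was stronger in replicates 1 and 2, and the one beyond its 3′ end was stronger in replicate 3. Wnt16 (chr6:22288227-22298522), known for its part in bone, had its strongest peak over the 5′ end at 73.0, 69.4 and 52.5.

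Wnt2, Wnt7b, Wnt8b and Wnt10b carried a peak in some replicates, and replicate 3 had none at any of the 4. Wnt10b (chr15:98770712-98778150), which is expressed in the epidermis where hair follicles begin, had 1 peak at its 5′ end in replicates 1 and 2, both at a percentile of 46.6. Wnt2 (chr6:17988940-18030585), a ligand of lung and vessels, had 1 at its 5′ end at 52.5 and 50.9. Wnt7b (chr15:85535437-85582473), a ligand of kidney, lung and skin, had 2 in its 5′ part, the stronger at 51.6 and 62.9. All of these were peaks of middling signal. Wnt8b (chr19:44493472-44514273), a forebrain ligand, had a peak only in replicate 1, at a percentile of 4.90, close to the weakest of the list.

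The remaining 7 ligands, Wnt1, Wnt3, Wnt3a, Wnt4, Wnt7a, Wnt8a and Wnt9b, carried no peak in any replicate. The nearest peak lay 10.1, 10.99 and 73.4 kb away from Wnt1 in replicates 1, 2 and 3, and 7.94, 39.6 and 134 kb from Wnt9b. Wnt1 patterns the midbrain and the dorsal neural tube, and Wnt9b with Wnt3 is needed for the fusion of the facial prominences. For Wnt3a the nearest peak was 14.5, 14.3 and 16.8 kb away and was the main peak of Wnt9a or the one at its 5′ end, and for Wnt3 it was 54.7, 86.4 and 66.04 kb. Wnt4, known from kidney and female reproductive tract, had none nearer than 75.7, 63.3 and 52.9 kb. The dorsal limb ligand Wnt7a and the early embryonic ligand Wnt8a had their nearest peak at 117 kb or more in every replicate. Wnt1 and Wnt10b are neighbours 11.7 kb apart, and in replicates 1 and 2 the peak nearest to Wnt1 was that of Wnt10b. Wnt3 and Wnt9b, 24.3 kb apart, carried no peak in any replicate.

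The 7 ligands known from embryonic facial and skin ectoderm, Wnt3, Wnt4, Wnt6, Wnt7b, Wnt9b, Wnt10a and Wnt10b, carried a peak in 4, 4 and 2 cases, a mean of 47.6% ± 16.5 (SD, n = 3). The other 12 ligands did so in 8, 7 and 6 cases, a mean of 58.3% ± 8.33. Both shares were above those of genes of like length, 18.4% for the ectoderm ligands and 20.4% for the others. The difference between the ectoderm ligands and the others was 10.7 ± 10.2 percentage points (SD, n = 3). It was close to its own spread, with the same sign in 3 of 3 replicates. The two-sided exact permutation test gave p = 0.25, the smallest it can give. Surface ectoderm markers also carried the fewest peaks in replicate 3, 3 of 10 beside 7 of 10 in replicates 1 and 2. Whether the share of ectoderm in each sample moved with these ligands was not tested.

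**Figure D3:**
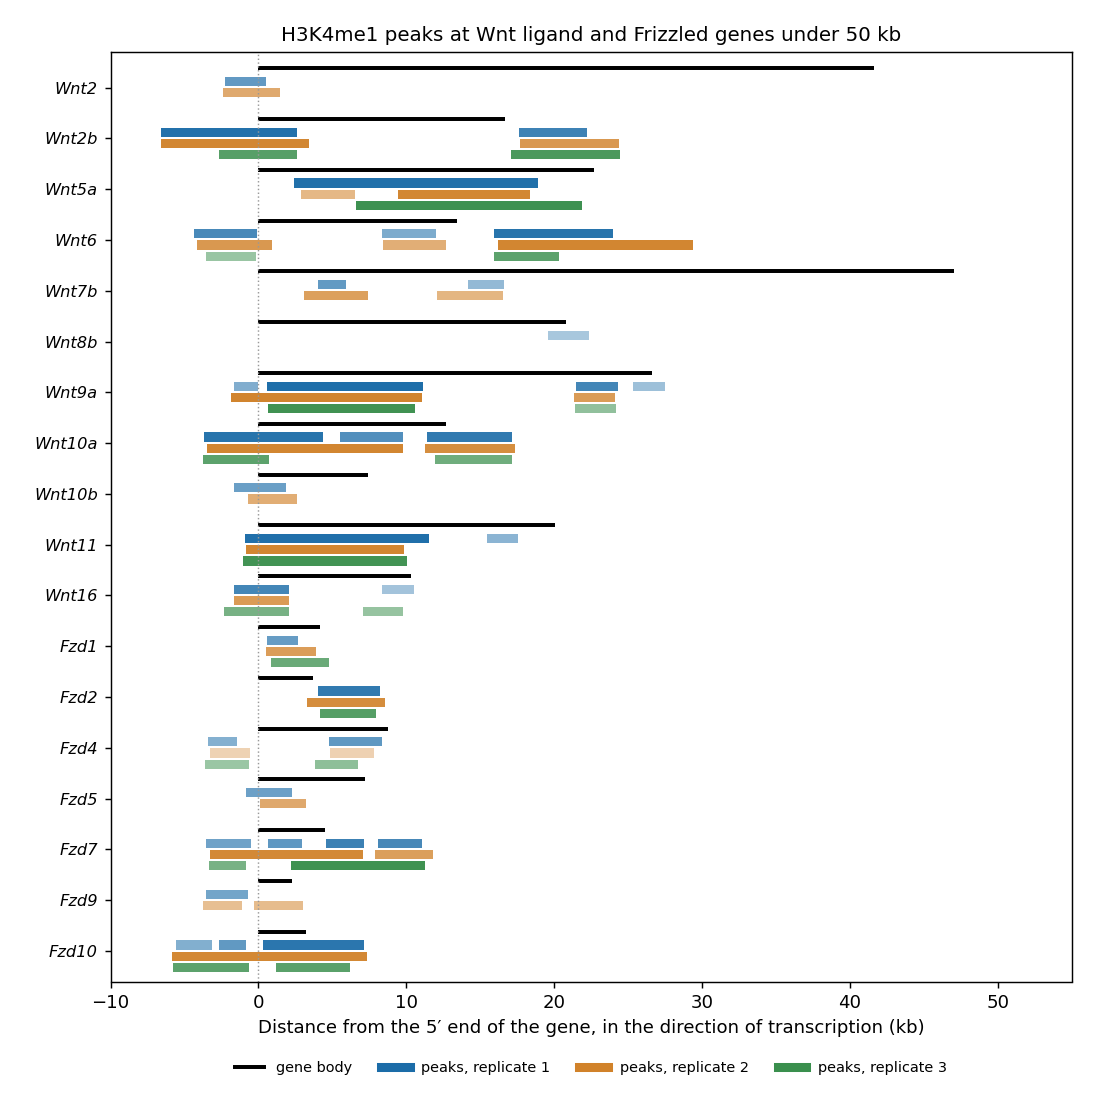
Peaks at the ligand and Frizzled genes under 50 kb that carried one, drawn to scale by distance from the 5′ end in the direction of transcription (x axis, kb), with the gene body in black and the peaks of each replicate in colour, paler for a lower percentile of total signal. Wnt5a, Wnt9a and Wnt11 carry a long dark peak in every replicate, and Wnt10a, Fzd7 and Fzd10 in some replicates. Wnt2, Wnt7b, Wnt10b, Fzd5 and Fzd9 have no peak in replicate 3.

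Among the receptors, 8 of the 10 Frizzled genes were under 10 kb long. Fzd1, Fzd2, Fzd4, Fzd7 and Fzd10 carried a peak in all 3 replicates, 5 of 10 genes, while 10.3% of genes of like length did so. The median distance from the place of highest pileup to the nearest start site was 2.39, 2.298 and 2.83 kb in replicates 1, 2 and 3. The median percentile of the strongest peak, 63.1 ± 7.88 (SD, n = 3), was close to that over all genes with a peak.

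Fzd7 (chr1:59482424-59486955), a receptor used in early mesoderm and in epithelial stem cells, had the highest mean percentile of the Frizzleds, with 77.9, 91.4 and 96.6. It ranked first in replicate 3 and below Fzd10 in replicates 1 and 2. Its marked region, chr1:59478914-59494223, was 15310 bp long, several times the length of the gene. In replicate 1 it was split into 4 peaks and in replicates 2 and 3 into 2, and replicate 1 also had the lowest percentile. The highest pileup, in the sequence printed above, lay beyond the 3′ end in each replicate.

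Fzd10 (chr5:128600844-128604093) reached percentiles of 89.3, 92.9 and 75.4, and peaks covered 79.5%, 93.3% and 70.8% of its window. Mean coverage at Fzd10 was above that of every gene of like length. Fzd2 (chr11:102604396-102608058), mutated in a human syndrome of short limbs and altered face, had 1 peak in each replicate, at 85.7, 86.5 and 78.1. That peak began near or beyond the 3′ end of the gene, and no peak lay within 1 kb of its start site.

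Fzd1 (chr5:4753839-4758035) had 1 peak in each replicate, at percentiles of 49.4, 66.1 and 62.6. Fzd4 (chr7:89404355-89413134), the receptor for Norrin in retinal vessels, had 2 peaks in each replicate, and the stronger of them was at 54.1, 1.86 and 34.2. The value in replicate 2 was among the lowest of that list, so the call at Fzd4 rested there on peaks near the bottom of the list. The weaker of the pair also overlaps the neighbouring gene Tmem135.

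Fzd5 (chr1:64730558-64737751), a receptor of eye development, carried 1 peak in replicates 1 and 2, at 45.3 and 52.4, and none in replicate 3. Fzd9 (chr5:135248938-135251230), which lies in the interval deleted in Williams syndrome in humans, had peaks at 40.0 and 28.2 in the same replicates and none in replicate 3. Fzd3 (chr14:65192449-65262463), a receptor of axon guidance and planar polarity, had the opposite pattern, with a peak in replicate 3 alone at 57.2. Fzd6, which orders the direction of hairs, and Fzd8 carried none. For Fzd6 the nearest peak was 28.3, 28.6 and 25.9 kb away, and for Fzd8 it was 979, 1123 and 180 kb.

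The co-receptor genes carried 48, 27 and 36 peaks between them. All 5 genes were marked in every replicate, beside 48.7% of genes of like length. The median percentile of the strongest peak was 94.7, 93.2 and 95.01, or 94.3 ± 0.941 on average (SD, n = 3). That peak is the highest of all at a gene, so many peaks give more chances of a high value. Its percentile was not set beside genes of like length. Peaks covered 23.8%, 19.5% and 23.1% of the co-receptor windows, against 16.4%, 15.8% and 10.6% at ligands and 15.6%, 19.7% and 14.9% at Frizzleds. In replicate 2 the Frizzled windows were covered as much as those of the co-receptors. The highest pileup lay in an intron for 46 of 48 peaks in replicate 1, 25 of 27 in replicate 2 and 35 of 36 in replicate 3. Its median distance to the nearest start site of the same gene was between 48.8 kb in replicate 2 and 62.5 kb in replicate 3. These genes are long, and neither place nor distance was set beside genes of like length. A peak came to within 1 kb of a start site at 4, 2 and 3 of the 5 genes.

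Ror2 (chr13:53109312-53286124), the receptor tyrosine kinase for Wnt5a, carried 15, 8 and 8 peaks, where genes of like length carried 2.15 on average. Its strongest peak was at percentiles of 98.1, 99.7 and 99.8, the highest of all 34 genes in replicates 2 and 3 and just below Wnt9a in replicate 1. In replicates 2 and 3 it was an unbroken block of 26143 and 25529 bp with its highest pileup in an intron, and its total signals were 814512 and 473516. Replicate 1 had the same stretch as 3 peaks with total signals of 221281, 243186 and 177744. The region as a whole was chr13:53190525-53216667. The Ror2 regions at chr13:53174403-53185010 and chr13:53229707-53239499 also had percentiles above 96 in all 3 replicates. In all, 7 of its 13 regions were present in every replicate.

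Ror1 (chr4:100095791-100444765) is the longest member at 349 kb and had 19, 9 and 16 peaks, where genes of like length carried 3.66 on average. Its strongest peak was at 93.1, 89.3 and 93.1, and 9 of its 21 regions were present in all replicates. Replicate 2 had the fewest peaks at Ror1, fewer than the other replicates by 7 or more. The strongest of the shared regions, chr4:100200173-100205253, holds the sequence printed above.

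Ryk (chr9:102834917-102908305), a Wnt receptor with an inactive kinase domain, had 5, 4 and 3 peaks, all in 3 regions that every replicate shared. The strongest, with its highest pileup in the intron printed above, was at 94.7, 93.2 and 97.8.

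Lrp5 (chr19:3584828-3686564), the co-receptor known for its effect on bone mass, had 4, 3 and 3 peaks and its strongest at 97.4, 97.4 and 93.4. In every replicate the highest pileup of that region, chr19:3634556-3644939, lay in an intron. The midpoint of these places was 46.2 kb from the nearest start site. Lrp6 (chr6:134446476-134566965), the main co-receptor of β-catenin signalling in the embryo, had 5, 3 and 6 peaks. Its strongest was at 87.3, 61.2 and 95.0, and replicate 2 stood below the others. No peak lay within 1 kb of a start site of Lrp6 in any replicate.

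**Figure D4:**
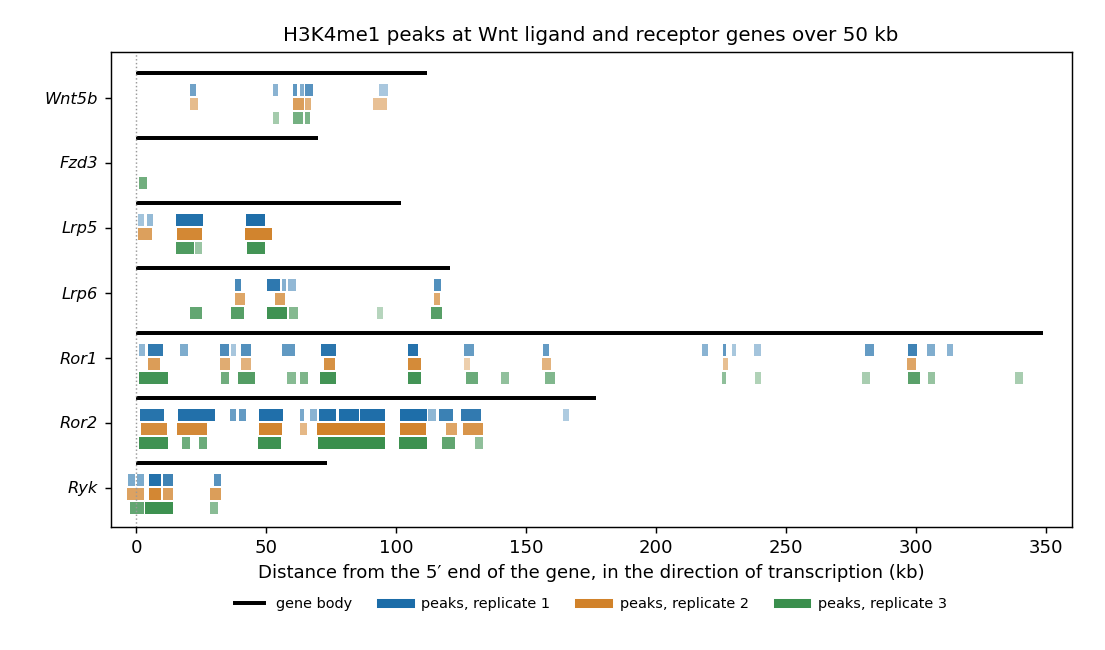
Peaks at the ligand and receptor genes over 50 kb that carried one, drawn to scale by distance from the 5′ end in the direction of transcription (x axis, kb), with the gene body in black and the peaks of each replicate in colour, paler for a lower percentile of total signal. Ror2 is covered by long dark peaks over much of its body, with 15, 8 and 8 peaks in the 3 replicates, Ror1 carries 19, 9 and 16 shorter ones, and Fzd3 has a peak in replicate 3 alone.

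The 6 genes of signalling without β-catenin, Wnt5a, Wnt5b, Wnt11, Ror1, Ror2 and Ryk, all carried a peak in every replicate. Among genes of like length 38.7% carried one, and 31.0% in all replicates. Fzd3 and Fzd6, which also act in planar polarity, are not in this list and carried a peak in 1 and 0 replicates.

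Peaks also reached the start site at many of these genes. In 20, 19 and 15 of the 34 genes a peak came to within 1 kb of a protein-coding start, which is 52.9% ± 7.78 (SD, n = 3), while 12.5%, 12.1% and 8.77% of all protein-coding genes had one. All 3 replicates had one at 11 genes, beside 6.17% of protein-coding genes. For ligands it was 11, 11 and 7 of 19, for Frizzleds 5, 6 and 5 of 10, and for co-receptors 4, 2 and 3 of 5. Of the 88, 57 and 59 distinct peaks at members, 24, 19 and 15 came to within 1 kb of a start site, and 5, 5 and 2 had their highest pileup there. The highest pileup lay in an intron for 60, 34 and 44 of them.

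Long peaks were more frequent at these genes than in the whole lists. Peaks of 10 kb or longer made up 6.82%, 19.3% and 11.9% of the peaks at members, or 6, 11 and 7 peaks, against 3.17%, 5.21% and 3.21% of the whole lists. They lay at 11 of the 34 genes, with a peak shared by Wnt6 and Wnt10a counted at Wnt6 alone. Over the 3 replicates Ror2 carried 9 of these peaks and Wnt11 carried 3, while each of the others carried 1 or 2. A long peak reaches a gene window more easily than a short one, and no share at genes of like length was taken.

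Merging peaks that overlapped between replicates by at least 1 bp gave 80 regions at members, of which 42 (52.5%) were present in all 3 replicates, beside 46.3% of all 19251 regions. By class these were 13 of 25 regions at ligands, 6 of 10 at Frizzleds and 24 of 46 at co-receptors, with the region shared by Wnt6 and Wnt10a counted for both. Regions found in some replicates differed in base composition by which replicates carried them. Median GC content was 53.1% for the 11 member regions in replicates 1 and 2 but not 3, 48.3% for the 42 in all replicates and 41.4% for the 6 in replicate 3 alone. The highest of the 6 values in replicate 3 alone was 43.3%, and the lowest of the 11 in replicates 1 and 2 was 50.03%. These are few regions, and the ranges over all 2487 and 2628 regions of the same 2 patterns were not taken. The same order held over all regions, with medians of 52.4%, 47.3% and 41.5%, close to those at members.

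The genes with a peak in replicates 1 and 2 but none in replicate 3 all had regions of over 52% GC. The region at Fzd5 had a GC content of 61.8%, that at Wnt10b 60.3%, those at Wnt7b 57.9% and 55.5%, those at Fzd9 60.1% and 52.2% and that at Wnt2 53.1%. The Fzd3 region, present in replicate 3 alone, was at 40.3%. Regions at Wnt9a and Wnt10a with a GC content of 56.8% and 56.5% were present in all replicates. The part of base composition in these calls was not tested.

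**Figure D5:**
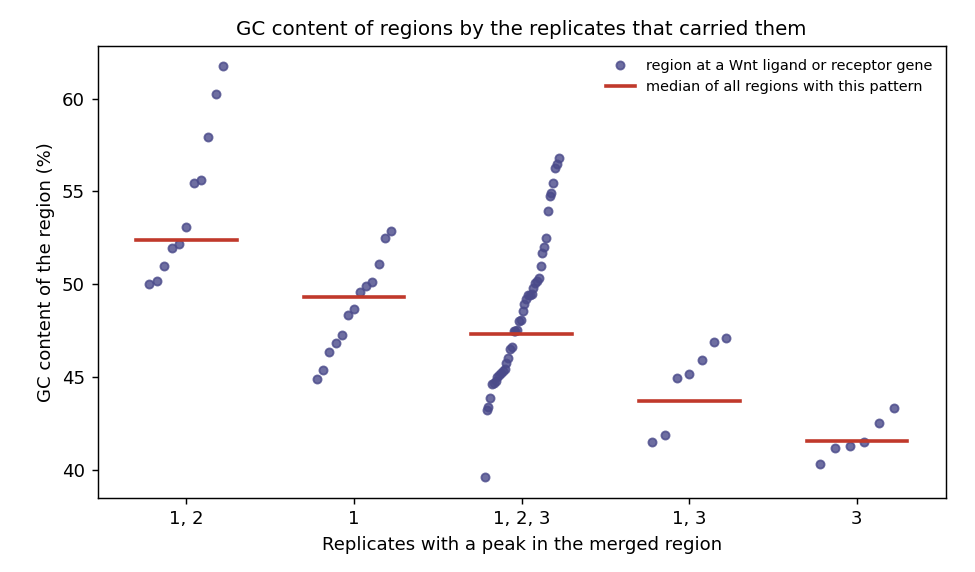
GC content of the merged regions at ligand and receptor genes (y axis, percent) by the replicates that carried them (x axis). Points are regions and red lines are the medians over all regions of the same pattern. The 11 regions in replicates 1 and 2 only lie at 50.03% to 61.8% and the 6 in replicate 3 only at 40.3% to 43.3%. A single region in replicate 2 alone is not drawn.

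The order of the genes by their strongest peak was more alike between some replicates than others. Spearman's rho across the members with a peak in both lists, given as a description, was 0.893 between replicates 1 and 2 (23 genes), 0.723 between 1 and 3 (18 genes) and 0.508 between 2 and 3 (18 genes). Wnt9a, Wnt5a, Wnt11, Ror2, Ryk and Lrp5 had percentiles above 93 in all 3 lists.

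Tcf and Lef factors, the nuclear partners of β-catenin, bind a core of CTTTGAT or CTTTGAA. Counting either on both strands in 300 bases around the highest pileup, 5 of the 42 member regions present in all replicates held it (11.9%), beside 898 of 8916 such regions over the genome (10.1%). The 5 were 3 regions of Ror1 and 1 each of Ror2 and Wnt2b, and none of the 6 printed sequences held it.

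Of 31 other genes of the pathway, 22, 21 and 20 carried a peak in replicates 1, 2 and 3, or 67.7% ± 3.23 (SD, n = 3), beside 34.8% of genes of like length, and 19 did so in all replicates. All 8 planar polarity genes, Vangl1, Vangl2, Prickle1, Prickle2, Celsr1, Ptk7, Daam1 and Daam2, were marked in every replicate. Of 8 nuclear genes, 6 were marked in every replicate, namely Tcf7, Lef1, Tcf7l1, Tcf7l2, Bcl9 and Bcl9l, with Pygo2 in some and Pygo1 in none. Of the cytoplasmic genes, 6, 4 and 4 of 10 carried a peak. Beside these groups stand shares of 41.0% for genes of like length to the planar polarity genes, 33.6% for the nuclear genes and 27.9% for the cytoplasmic genes. Ctnnb1, which codes for β-catenin, Dvl2 and Btrc carried a peak in every replicate, Dvl3, Gsk3a and Gsk3b in some, and Dvl1, Axin1, Apc and Csnk1a1 in none. Of the 2 genes of ligand secretion, Wls, the carrier of Wnt proteins to the cell surface, was marked in every replicate and Porcn, the enzyme that adds their lipid, in none. At the cell surface Gpc3 was marked in every replicate and Gpc4 and Musk in none. Among genes of like length 28.4% carried a peak for the secretion genes and 49.2% for the surface genes. The share of the surface genes, 33.3% in each replicate, was thus below that of genes of like length.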

How the data were processed

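The submitters' processing notes name Bowtie2 2.3, SAMtools 0.1.19, bedtools, SEACR 1.3 and the build mm10. Per the study's methods, the authors called peaks in each replicate with SEACR in stringent mode, without IgG, and kept the top 1% of blocks. The deposited lists give each peak's total signal and maximum signal (fragment pileup) as whole numbers not scaled to depth. No replicates were pooled by the authors. How duplicate fragments were treated is not given in the sources used here.

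Groups were taken from the sample titles. The members and lists were chosen with earlier results of these data known. Gene positions came from GENCODE vM21, GC content and sequence from the RefSeq GRCm38.p6 genome, and all peaks ended within its chromosomes. Coordinates are 1-based. Genes of like length were the 500 protein-coding genes nearest in length, a description with no test. Every member was accounted for, and 1 marker gene stays in its list but is not reported singly. A member with a peak in all or some replicates was given with its values, and the others with the distance to the nearest peak. The one kind of test was an exact permutation over replicates with a threshold of 0.05, which 3 replicates cannot reach. Counting was tested on simulated peaks. Python 3.11.15, pandas 2.3.3, SciPy 1.17.1 and pysam 0.24.0 were used. Alternatives covered the window, the peak threshold, the overlap, the signal measure and leaving out each replicate.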

Additional observations from a re-analysis of the deposited data

How the results depend on the processing

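Alternatives were run for 13 results. Of 74 alternatives of a result without a test, 63 moved the value by less than the spread between replicates or, for a count, by less than 1.5 times, and 11 moved it by more. Of 40 alternatives of a difference with a test, 5 moved it by more than the spread, all with wider or narrower windows or the stronger 50% of each list, and 1 turned its direction, that of Frizzleds minus ligands at -2.46 percentage points in the stronger 50%. No alternative could give any of these differences a permutation p below 0.25 with 3 replicates, or below 0.5 with 2. The p therefore could not show whether the differences held. The cause of these moves was not tested beyond what each alternative leaves out. The share of Frizzled genes with a peak was 56.7% with the gene body only, 46.7% with the stronger 50% of each list and 60% with the strongest 10000 peaks. The stronger 50% also gave 55.9% for pathway genes, 38.2% for members with a peak at a start site and 14.5% for coverage of the members' windows. Start-site peaks were found at 45.1% of members with the strongest 10000 peaks, and at 45.1% with only the 5′ end of each gene. The median percentile of the strongest peak was 80.0 by maximum signal and 76.5 by total signal divided by peak length. With 20 kb on either side, coverage was 14.6%.

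Leaving out each replicate in turn gave a range of 50% to 60.5% for ligands, 65% to 70% for Frizzleds, 100% for co-receptors, 66.1% to 69.4% for pathway genes, 50% to 57.4% for start sites, 17.6% to 18.9% for coverage, 86.2 to 87.9 for the median percentile, 40.0 to 44.6 percentage points for members minus genes of like length, 19.5 to 26.7 points for receptors minus ligands, 9.47 to 15 for Frizzleds minus ligands, 39.5 to 50 for co-receptors minus ligands and 5.36 to 15.5 for other minus ectoderm ligands. The count of members with a peak in every replicate ranged from 18 to 23, the highest without replicate 3. The alternatives of the last 3 differences and the following 2 were chosen after seeing the data. In replicate 1 alone the shares were 63.2% for ligands and 70% for Frizzleds, and leaving out peaks over another protein-coding gene left 18 members with a peak in every replicate. No paired analysis was possible because control libraries with matching numbers were not analysed here. The lists hold no read numbers and the depth reported in the paper was not used. Neither depth nor background limits were therefore set for a gene without a peak.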
